A study of Mus musculus with 64 samples.

Results

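The 8 genes described here act in immune checkpoints or the adenosine pathway: 5 encode inhibitory immune checkpoint molecules (Havcr2, Lag3, Pdcd1, Ctla4 and Cd274), 2 encode the surface enzymes that turn extracellular ATP into adenosine (Entpd1 and Nt5e), and Adora2a encodes the adenosine receptor A2a. They were found by their symbols in a raw count table of 36273 genes, and each of the 8 symbols was present in 1 row. The counts came from the 3' ends of mRNA in 64 bulk libraries, in 18 groups, of natural killer (NK) cells from mice, lymphocytes that kill infected or transformed cells. Spleen NK cells of 3 genotypes had been grown for 5 days with low amounts of IL-2 and of IL-15 bound to its receptor chain. WT cells came from C57BL/6J mice, cells labelled EP2KO from Ptger2-/-Ptger4fl/fl mice, and cells labelled EP2/EP4KO from GzmbCrePtger2-/-Ptger4fl/fl mice. EP2 and EP4 are the receptors encoded by Ptger2 and Ptger4, through which prostaglandin E2 (PGE2) raises cyclic AMP in lymphocytes. EP2KO and EP2/EP4KO cells both lack Ptger2 in every cell and both carry floxed Ptger4. Only EP2/EP4KO cells carry Cre under Gzmb control, so that deletion of Ptger4 depends on granzyme B expression and its extent in the cultures is not given by the labels. Within each genotype, cells were left untreated, given PGE2 (100 ng/ml), or given CM, which is medium conditioned by control BRAFV600E tumour cells that produce PGE2. Unstimulated cells stayed 5 h in the treatment, and stimulated cells had 1 h of treatment and then 4 h on antibody to the activating receptor NK1.1. Each group of WT and EP2KO cells held 4 libraries, apart from 2 for WT cells with PGE2 and no stimulation, and each EP2/EP4KO group held 3. The labels do not say whether replicates came from separate mice or cultures, so p-values measure only the spread between these libraries.

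TIM-3, LAG-3, PD-1 and CTLA-4, the products of Havcr2, Lag3, Pdcd1 and Ctla4, are receptors that damp T and NK cell responses after they bind ligands on other cells. PD-L1, the product of Cd274, is the ligand of PD-1 and is found on tumour, myeloid and activated lymphoid cells. CD39 (Entpd1) removes phosphates from extracellular ATP and ADP, CD73 (Nt5e) removes the last phosphate from AMP to yield adenosine, and adenosine acting on A2a (Adora2a) raises cyclic AMP, the second messenger that EP2 and EP4 also use.

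Total counts per library ran from 753973 to 1693750 with a median of 1256163, so that 1 count corresponds to about 1 CPM, the count scaled to 1000000 per library with TMM factors, which is the unit of level used here. Libraries of WT cells with CM and no stimulation were shallower (mean 933827.5 ± 113553.8 counts, SD, n = 4) than untreated ones (1197294 ± 133756.6, n = 4). The 12 NK cell markers were all detected and together took 0.6253% to 1.25% of the counts of a library. Markers of other cells took little: the 10 T cell genes 0.00556% to 0.0169%, the 14 macrophage and dendritic cell genes 0.00896% to 0.0440% and the 6 neutrophil genes 0.00237% to 0.0661%. The 6 genes listed for type 1 innate lymphoid cells took 0.00809% to 0.0544%. Their mean share in untreated WT libraries was 0.0329% without and 0.0143% with stimulation. The neutrophil share was uneven between EP2KO libraries, from 0.00473% to 0.0482% in the untreated stimulated group. The 3' ends of Ptger2 and Ptger4 mRNA were counted in all 3 genotypes (Ptger4 means of 29.7, 30.2 and 59.2 CPM in WT, EP2KO and EP2/EP4KO), so these tags, which may lie outside the deleted parts, check neither label. Xist RNA, made by an inactivated X, had a mean of 696.2 CPM in WT, 650.1 in EP2KO and 42.2 in EP2/EP4KO, so EP2/EP4KO cells also differ from the others in sex. Receptor loss and sex cannot be told apart in any comparison with EP2/EP4KO. These are bulk libraries, in which fewer cells with a transcript and less of it per cell cannot be told apart.

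Promoter sequence is shown for 3 members, Havcr2, Nt5e and Entpd1. The levels of Havcr2 and Nt5e moved in opposite directions with PGE2 and CM in stimulated WT cells. Entpd1 is the member with matches to the shortened cyclic AMP response element. RefSeq windows (GRCm38.p6) covered 6 of the 8 members. None was at hand for Lag3 and Adora2a. The 250 bases before the RefSeq transcription start are printed, all on the plus strand, for Havcr2 at chr11:46454681-46454930, Nt5e at chr9:88327359-88327608 and Entpd1 at chr19:40612116-40612365. The Nt5e window lies within the gene as annotated by GENCODE M21, which starts at 88327197, upstream of the RefSeq start used. Its sequence is thus not upstream of the whole annotated gene. Capitals mark an AP-1 match in Havcr2 and a shortened cyclic AMP response element in Entpd1.
Havcr2: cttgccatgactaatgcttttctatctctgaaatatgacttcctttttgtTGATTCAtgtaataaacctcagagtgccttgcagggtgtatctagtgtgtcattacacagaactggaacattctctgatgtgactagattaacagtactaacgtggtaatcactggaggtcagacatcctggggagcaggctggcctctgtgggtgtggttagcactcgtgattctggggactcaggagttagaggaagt
Nt5e: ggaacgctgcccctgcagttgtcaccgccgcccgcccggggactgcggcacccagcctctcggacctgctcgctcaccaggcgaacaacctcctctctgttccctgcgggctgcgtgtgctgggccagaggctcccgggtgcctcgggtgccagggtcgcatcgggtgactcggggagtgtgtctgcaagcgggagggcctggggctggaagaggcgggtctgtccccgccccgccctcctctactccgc
Entpd1: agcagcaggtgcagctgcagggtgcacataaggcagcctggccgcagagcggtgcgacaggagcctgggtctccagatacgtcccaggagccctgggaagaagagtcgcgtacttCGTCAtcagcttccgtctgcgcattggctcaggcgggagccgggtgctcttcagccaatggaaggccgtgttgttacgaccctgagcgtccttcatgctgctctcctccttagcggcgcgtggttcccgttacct

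A set of 5 motifs was searched on both strands in all 32851 RefSeq windows of this length. The full cyclic AMP response element (CRE), TGACGTCA, occurred in 1.546% of windows, its shortened form TGACG, which lies within it, in 17.77%, the AP-1 motif TGANTCA in 6.749%, the core NFAT motif GGAAA in 55.57% and the NF-kB motif GGGNNNNNCC in 45.8%. The Havcr2 window held 1 AP-1 match, starting 200 bases before the start, and no CRE or NFAT match. The Nt5e window held none of the CRE, AP-1 or NFAT motifs and 2 overlapping NF-kB matches, 34 and 33 bases before the start and not capitalised. The Entpd1 window held 1 shortened CRE, on the minus strand at 135 bases, and the window of a second Entpd1 start held another at 183 bases. In Pdcd1 the NFAT motif lay at 28 and 23 bases, in Ctla4 at 144, in Cd274 at 120 and in the second Entpd1 window at 233 and 130. The Ctla4 window and the second Entpd1 window, like that of Nt5e, lie within the annotated genes. Bases just after the RefSeq start were found in an annotated transcript for every member window except that of Cd274. A match describes letters in a window, and no binding was measured.

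Of the 8 members, 6 passed the filter on low counts and were tested among 10723 genes. Pdcd1 and Ctla4 did not: their counts over all 64 libraries summed to 116 and 101. A gene is called changed here at an adjusted p under 0.05 (edgeR's quasi-likelihood test, Benjamini-Hochberg over all genes tested). This fit does not pair libraries by replicate number, and calls that such pairing adds are named in the closing section. NK1.1 stimulation of untreated cells was the widest change among the members as among all genes. It changed 4 of the 6 tested members in WT, where 42% of all tested genes were called, 4 in EP2KO (33.3% of all genes) and 3 in EP2/EP4KO (30.2%). In stimulated WT cells, PGE2 changed 3 members (15.6% of all genes) and CM changed 2 (15.4%). In stimulated EP2KO cells PGE2 changed 1 (7.29%) and CM changed 2 (10.4%). Without stimulation, CM changed 1 member in WT (8.23%) and PGE2 changed 0 (2.97%), and in EP2KO the counts were 0 for CM (4.37%) and 0 for PGE2 (3.15%). At an unadjusted p under 0.05 the last 3 counts of 0 were 1 for PGE2 in WT, 1 for CM in EP2KO and 2 for PGE2 in EP2KO, and DESeq2 also called 0 in each. No member was called in EP2/EP4KO with any treatment, where the share of all genes called was 0% with PGE2 in either state, 0% with CM without stimulation and 0.0746% with CM and stimulation. The counts at an unadjusted p under 0.05 there were 0, 0, 0 and 2, and DESeq2 called 0 in all 4. Over the 6 tested members the median log2 fold change in WT was 0.76 on stimulation (0.01 over all genes), −0.57 with PGE2 in stimulated cells (−0.05) and −0.42 with CM in stimulated cells (−0.04). Comparisons of PGE2 and of CM with untreated cells share the untreated libraries.

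**Figure D1:**
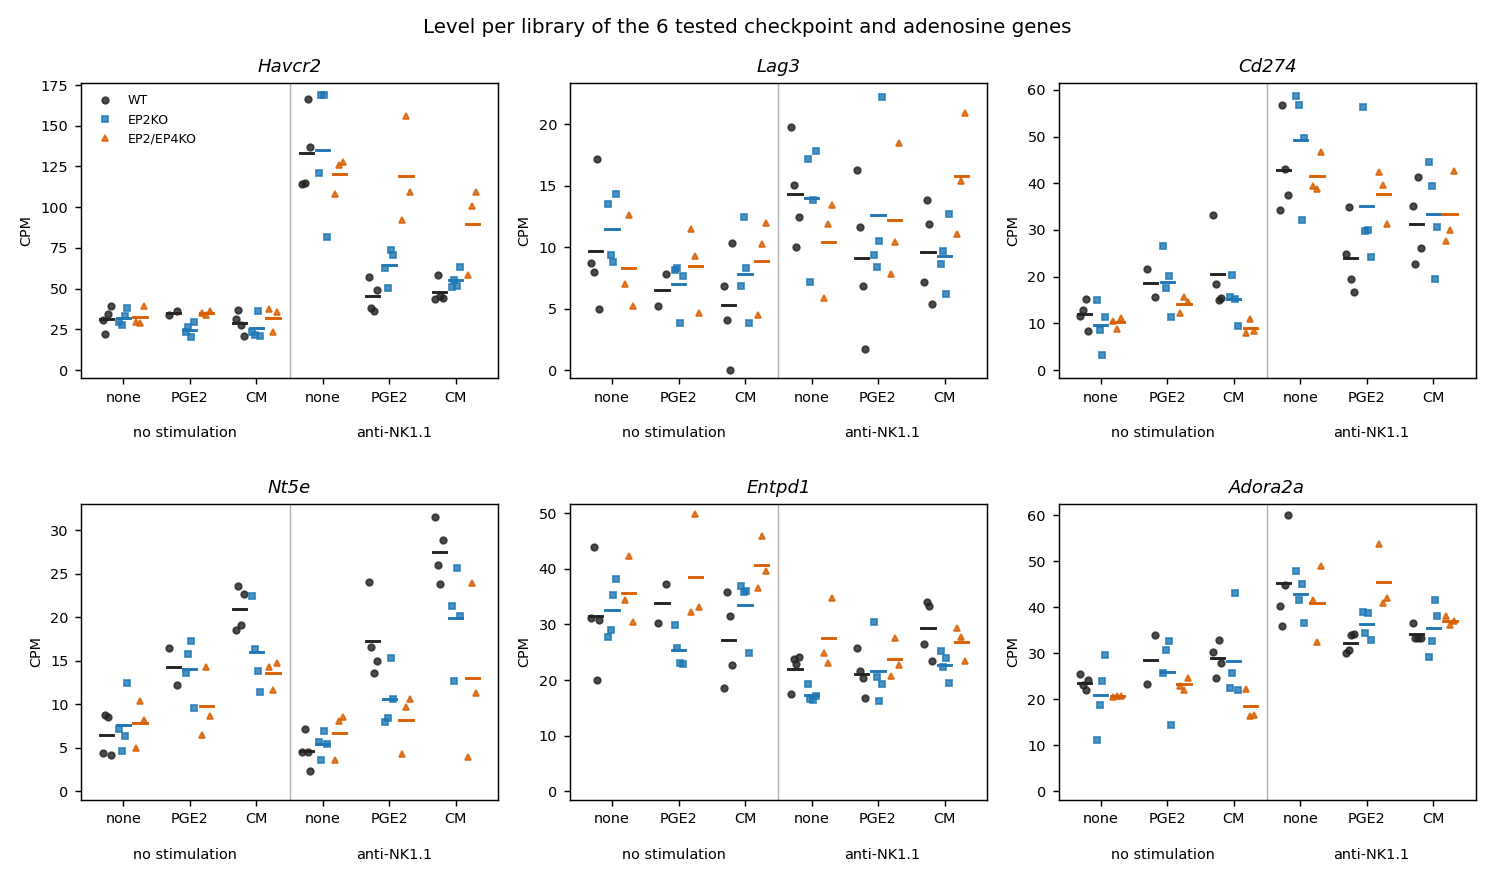
Level in CPM (vertical axis, linear) of the 6 tested members in each library, by treatment and stimulation (horizontal axis) and genotype. Points are libraries and bars are group means; Havcr2 with NK1.1 stimulation alone lies at 81.6 CPM or above in every library of all 3 genotypes, and Nt5e is highest in WT cells with CM.

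Havcr2 (TIM-3; GRCm38 chromosome 11, 46454935 to 46481255, plus strand) rose about 4-fold on NK1.1 stimulation, and in WT and EP2KO cells it stood lower after stimulation when PGE2 or CM was present. Untreated unstimulated WT libraries stood at 30.5, 22.3, 34.3 and 39.0 CPM and untreated stimulated ones at 114, 115, 166 and 137 CPM. The lowest stimulated library thus lay far above the highest unstimulated one, a difference of 2.08 ± 0.20 on the log2 scale (SE; edgeR adjusted p = 3.08e-13; 4.22-fold). EP2KO cells rose by 2.08 ± 0.20 (adjusted p = 3.65e-13) and EP2/EP4KO cells by 1.88 ± 0.23 (adjusted p = 7.49e-10), without overlap in either genotype. The genotypes had means of 31.5 ± 7.07, 32.0 ± 4.72 and 32.6 ± 5.81 CPM (SD) before and 133 ± 24.6, 135 ± 42.2 and 120 ± 10.8 CPM after stimulation.

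With PGE2, stimulated WT libraries held 57.4, 38.2, 36.0 and 49.2 CPM of Havcr2. All 4 lay below the lowest untreated library, and the log2 fold change was −1.55 ± 0.19 (edgeR adjusted p = 4.88e-09), a 2.93-fold lower level. Stimulated EP2KO libraries with PGE2 held 62.9, 50.4, 73.6 and 70.7 CPM against 121, 169, 169 and 81.6 untreated. The groups did not overlap, with 1 untreated library close to the treated ones, and the log2 fold change was −1.07 ± 0.19 (adjusted p = 2.46e-05). Stimulated EP2/EP4KO libraries with PGE2 held 91.9, 156 and 109 CPM against 108, 126 and 127 untreated. These overlapped, and the log2 fold change was −0.01 (95% interval −0.42 to 0.39; adjusted p = 1).

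With CM, Havcr2 moved in the same direction. Stimulated WT libraries with CM held 43.7, 58.5, 45.3 and 44.2 CPM, again all below the untreated ones, and EP2KO libraries 51.2, 55.1, 51.3 and 63.4 CPM. The log2 fold changes were −1.47 ± 0.19 in WT (edgeR adjusted p = 1.83e-08) and −1.29 ± 0.19 in EP2KO (adjusted p = 5.19e-07). In EP2/EP4KO the libraries spread from 58.6 through 101 to 110 CPM, and the log2 fold change of −0.42 ± 0.21 (95% interval −0.84 to −0.01) had an adjusted p of 0.724. Between CM and PGE2 themselves, stimulated WT cells differed by 0.08 (95% interval −0.34 to 0.50; adjusted p = 1).

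Without stimulation, neither treatment was called for Havcr2. The 6 log2 fold changes lay between −0.36 and 0.16, and all 6 pairs of groups overlapped. In WT the change with PGE2 was larger in stimulated than in unstimulated cells by −1.71 ± 0.34 (interaction term, edgeR adjusted p = 0.00158), and the change with CM by −1.36 ± 0.31 (adjusted p = 0.00709). Havcr2 was the only one of the 6 tested members called in these interactions, in which 1.31% and 2.19% of all genes were called. Any such term also carries the difference in schedule, 5 h of treatment against 1 h before 4 h on antibody. The term for PGE2 rests on 2 unstimulated WT libraries with PGE2.

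The change of Havcr2 with treatment also differed between genotypes. In stimulated cells the log2 fold change with PGE2 was higher (less negative) in EP2/EP4KO than in WT by 1.54 ± 0.28 (edgeR adjusted p = 0.000147; 4.27% of all genes called), and higher than in EP2KO by 1.06 ± 0.28 (adjusted p = 0.0342; 0.951% of all genes). With CM the difference from WT was 1.05 ± 0.28 (adjusted p = 0.0418; 1.21% of all genes) and that from EP2KO 0.86 ± 0.28 (adjusted p = 0.236; 0.345%). The terms at adjusted p of 0.0342 and 0.0418 were no longer called when only the groups compared entered the fit (adjusted p = 0.191 and 0.243) or when library totals replaced TMM scaling (adjusted p = 0.0749 and 0.0855). The first was also lost without any 1 of 8 libraries, down to 0.81 (adjusted p = 0.284) without EP2/EP4KO PGE2 stimulated replicate 2, which stood at 156 CPM. The second was lost without any 1 of 10 libraries, down to 0.88 (adjusted p = 0.190) without EP2/EP4KO CM stimulated replicate 3. The CM difference from EP2KO was called without EP2KO untreated stimulated replicate 4 (1.04, adjusted p = 0.0418) or EP2/EP4KO CM stimulated replicate 1 (1.09, adjusted p = 0.0429). Between EP2KO and WT the differences were 0.48 (95% interval −0.06 to 1.02) with PGE2 and 0.18 (95% interval −0.35 to 0.72) with CM, and neither was called (0% of all genes in both). In those 2 comparisons 0 members were called by edgeR and by DESeq2, and 0 had an unadjusted p under 0.05. Among the 18 groups the order of Havcr2 means ran from 135 CPM in untreated stimulated EP2KO cells to 24.9 CPM in EP2KO cells with PGE2 and no stimulation. Only 2 of the 17 neighbouring pairs in this order differed by more than the larger SD of the pair.

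No other member was called in a comparison of treatment effects between genotypes. Without stimulation these comparisons called 0% of all genes for EP2KO minus WT with PGE2 and with CM, 0.354% and 0.214% for EP2/EP4KO minus EP2KO, and 0.485% and 0.280% for EP2/EP4KO minus WT. In those 6, 0 members were called by edgeR, 0 had an unadjusted p under 0.05 and DESeq2 called 0. Untreated cells of the genotypes were also compared directly, and 0 members were called by edgeR and by DESeq2 in each of 4 comparisons. EP2KO against WT called 0.0653% of all genes without and 0.0746% with stimulation, and EP2/EP4KO against EP2KO 0.0560% and 0.0839%. The one member with an unadjusted p under 0.05 was Entpd1, higher in stimulated EP2/EP4KO than EP2KO cells by 0.66 ± 0.22 (edgeR adjusted p = 0.785).

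**Figure D2:**
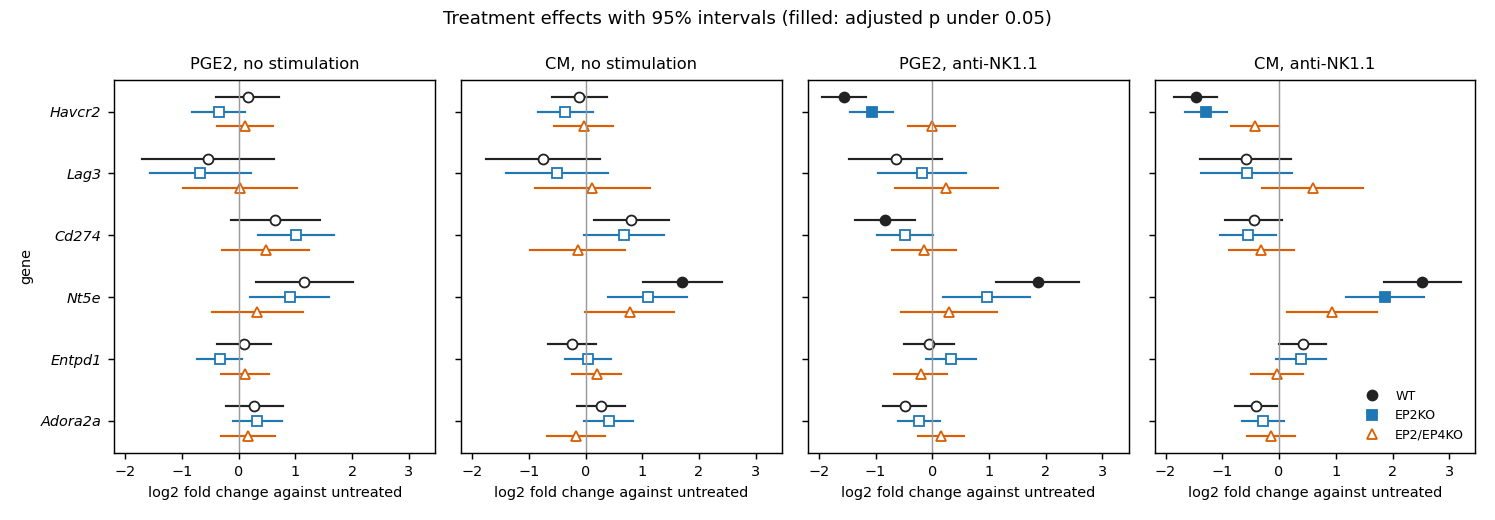
Log2 fold change against untreated cells of the same genotype and stimulation (horizontal axis) for each tested member (vertical axis), with 95% intervals derived from the edgeR F statistic. Panels are split by treatment and stimulation. Filled symbols have an adjusted p under 0.05; in stimulated WT cells Havcr2 lies left of 0 and Nt5e right of 0 with both treatments, and no EP2/EP4KO symbol is filled.

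Cd274 (PD-L1; chromosome 19, 29367455 to 29388095, plus strand) also rose on stimulation. Untreated WT libraries held 11.6, 12.8, 15.2 and 8.31 CPM without and 34.3, 56.8, 43.0 and 37.4 CPM with stimulation, a log2 fold change of 1.84 ± 0.29 (edgeR adjusted p = 3.92e-07). It was 2.37 ± 0.30 in EP2KO (adjusted p = 1.39e-09) and 2.02 ± 0.33 in EP2/EP4KO (adjusted p = 1.76e-06), without overlap in any genotype. An annotated antisense gene overlaps Cd274, and no source states that counting used strand. In stimulated WT cells PGE2 lowered Cd274 to 24.9, 34.9, 19.5 and 16.7 CPM, a range that overlaps the untreated one by 1 library. The log2 fold change was −0.83 ± 0.26 (adjusted p = 0.0205), and it was not called with library totals in place of TMM (adjusted p = 0.0769), with only the groups compared (adjusted p = 0.0773), or without any 1 of 3 libraries: untreated replicate 2 (−0.65, adjusted p = 0.104), PGE2 replicate 3 (−0.74, adjusted p = 0.0739) or PGE2 replicate 4 (−0.68, adjusted p = 0.1003). The other values in stimulated cells were −0.48 with PGE2 and −0.55 with CM in EP2KO, −0.45 with CM in WT, and −0.14 with PGE2 and −0.31 with CM in EP2/EP4KO, with adjusted p from 0.160 to 1. Without EP2KO PGE2 stimulated replicate 1, which stood at 56.4 CPM, the PGE2 value in EP2KO was −0.81 (adjusted p = 0.0441).

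In unstimulated cells the Cd274 estimates lay above 0 in WT and EP2KO. They were 0.64 ± 0.39 (PGE2) and 0.80 ± 0.33 (CM) in WT, and 1.01 ± 0.33 (PGE2) and 0.68 ± 0.36 (CM) in EP2KO, with edgeR adjusted p of 0.485, 0.119, 0.0903 and 0.361. None was called. With only the groups compared in the fit, CM in WT was called (0.81, adjusted p = 0.0400). In EP2KO with PGE2, leaving out untreated replicate 1 or PGE2 replicate 4 gave an adjusted p of 0.0394 or 0.0443. The change with stimulation of the treatment effect in WT was −1.47 ± 0.47 for PGE2 (adjusted p = 0.116) and −1.25 ± 0.41 for CM (adjusted p = 0.0874).

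Lag3 (LAG-3, a receptor for MHC class II; chromosome 6, 124904361 to 124911705, minus strand) was sparse, at 0 to 26 counts per library, and was called in none of the 35 comparisons by edgeR or DESeq2, with 0 at an unadjusted p under 0.05. Its group means ran from 5.31 CPM in WT cells with CM and no stimulation, where 1 of 4 libraries had 0 counts, to 15.8 CPM in stimulated EP2/EP4KO cells with CM. No neighbouring groups in that order differed by more than their SD. On stimulation it stood at 19.8, 15.1, 10.1 and 12.5 CPM in WT against 8.72, 7.98, 17.1 and 4.98 before, so the groups overlapped (log2 fold change 0.60, 95% interval −0.21 to 1.41; edgeR adjusted p = 0.235). That interval includes both no change and a rise as large as the one of Adora2a below.

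Pdcd1 (PD-1; chromosome 1, 94038305 to 94052553, minus strand) was close to the detection limit, with 0 counts in 26 of the 64 libraries and at most 13. Untreated stimulated WT libraries held 2, 0, 0 and 1 counts, those with PGE2 4, 4, 8 and 7, and those with CM 13, 1, 3 and 7. In EP2KO the stimulated libraries held 1, 1, 1 and 0 counts untreated, 4, 4, 4 and 3 with PGE2, and 2, 3, 5 and 6 with CM. Every PGE2 library of both genotypes therefore held more counts than every untreated one, and so did every CM library of EP2KO. In EP2/EP4KO the counts were 0, 3 and 0 untreated, 4, 2 and 1 with PGE2, and 3, 1 and 0 with CM, and these overlapped. Without stimulation Pdcd1 was at 0 counts in all 4 untreated EP2KO libraries, which allows up to 0.621 CPM (3 counts over the group, counting error only), and at 1, 2, 3 and 3 counts with PGE2.

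An exact two-sided permutation test of mean CPM for Pdcd1 gave p = 0.0286, the smallest possible with 4 against 4 libraries, for PGE2 in stimulated WT cells, PGE2 in stimulated EP2KO cells, CM in stimulated EP2KO cells and PGE2 in unstimulated EP2KO cells. For CM in stimulated WT cells the exact p was 0.0571. Adjusted over the 30 such tests of Pdcd1 and Ctla4 the smallest value was 0.143. With 3 against 3 libraries the exact p cannot lie under 0.1. These group sizes thus left an adjusted p under 0.05 nearly out of reach, and the adjusted values decide nothing here. When genes with low counts were not filtered out and 36164 genes were tested, edgeR called Pdcd1 for PGE2 (adjusted p = 0.0108) and CM (adjusted p = 0.0170) in stimulated WT cells and not in EP2KO (adjusted p = 0.303 and 0.221). With 3 counts in the untreated group, no fold is given.

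Ctla4 (CTLA-4; chromosome 1, 60887000 to 60915832, plus strand) was as sparse, with 0 counts in 22 libraries and at most 8. Stimulated WT libraries held 3, 1, 1 and 0 counts untreated, 5, 4, 5 and 5 with PGE2 and 1, 0, 2 and 3 with CM, so that PGE2 libraries lay above and CM libraries among the untreated ones. Stimulated EP2KO libraries held 0 counts in all 4 untreated libraries, which allows up to 0.574 CPM, and 4, 3, 1 and 1 with PGE2. The exact permutation p was 0.0286 in both cases (adjusted p = 0.143 over the 30 tests, with the same limit from group size as for Pdcd1). In the unfiltered edgeR fit the adjusted p was 0.171 in WT and 0.0740 in EP2KO. Without stimulation, summed Ctla4 counts in WT were 4 untreated, 4 with PGE2 (2 libraries) and 14 with CM. They were 3, 12 and 8 in EP2KO and 3, 2 and 5 in EP2/EP4KO. All these treated groups overlapped the untreated ones, and the exact permutation p ran from 0.0571 (PGE2 in EP2KO) to 0.7 (CM in EP2/EP4KO). A processed pseudogene, Rpl18-ps1, lies within Ctla4 on the same strand and holds 3434 counts, so the division of reads between them is uncertain.

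Both genes are best known from T cells, and the T cell marker list took more of the counts in the same groups. Its share was 0.00649% to 0.00869% in untreated stimulated WT libraries and 0.0124% to 0.0169% with PGE2, with 10 of 10 genes counted in the first group and 9 of 10 in the second, where Foxp3 was at 0. In stimulated EP2KO libraries it was 0.00556% to 0.00691% untreated and 0.00990% to 0.0117% with PGE2. In WT most of it was Cd28 (294 counts in the 4 untreated libraries, 514 with PGE2), and Cd6 had 17 and 52 counts. The T cell receptor complex genes had 53 and 39 counts (Cd3d), 8 and 9 (Cd3e) and 44 and 12 (Cd3g), and the coreceptor genes 1 and 1 (Cd4) and 3 and 1 (Cd8a). The part of T cells in the Pdcd1 and Ctla4 counts was not tested.

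**Figure D3:**
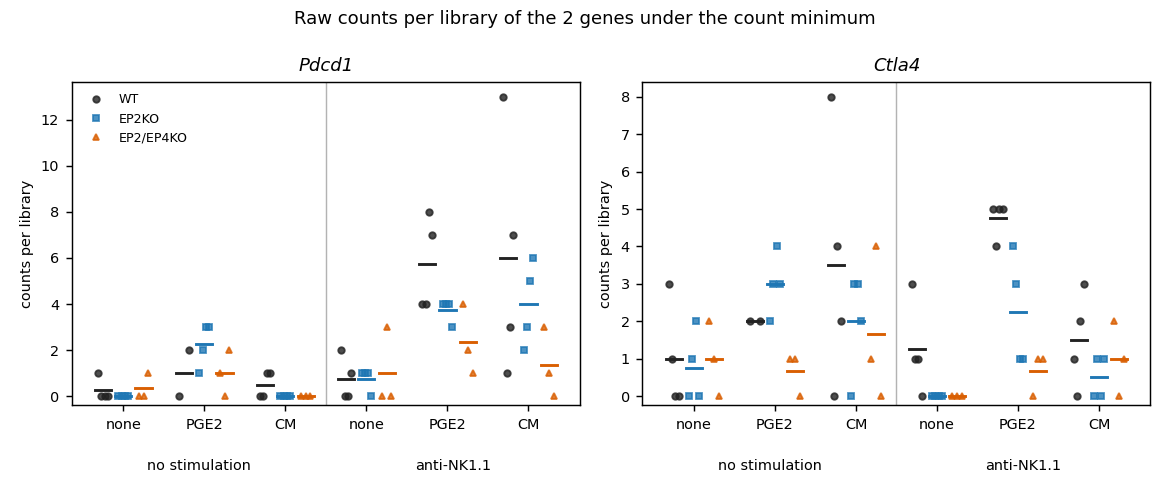
Raw counts per library (vertical axis, linear) of Pdcd1 and Ctla4 by treatment and stimulation (horizontal axis) and genotype. Points are libraries and bars are group means; in stimulated cells the PGE2 libraries of WT and EP2KO lie above the untreated ones for both genes.

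Nt5e (CD73; chromosome 9, 88327197 to 88372092, plus strand) was, of the 6 tested members, the one called higher with PGE2 or CM. Pdcd1, not among these 6, had 3 counts untreated, 23 with PGE2 and 24 with CM in stimulated WT cells. In stimulated WT cells Nt5e stood at 4.57, 7.19, 4.57 and 2.34 CPM untreated, 24, 16.6, 13.6 and 14.9 CPM with PGE2, and 31.5, 26.0, 23.8 and 28.8 CPM with CM. Every treated library exceeded every untreated one, by 1.86 ± 0.37 on the log2 scale with PGE2 (edgeR adjusted p = 0.000103; 3.63-fold) and by 2.52 ± 0.34 with CM (adjusted p = 5.46e-08; 5.75-fold). Counts behind these levels were small, from 3 to 10 in an untreated library and from 14 to 44 in a treated one. CM stood above PGE2 by 0.66 ± 0.28, with overlapping libraries, and this difference was not called (adjusted p = 0.999). Between CM and PGE2 edgeR and DESeq2 called 0 members, with stimulation (0.00933% of all genes; 2 members at an unadjusted p under 0.05, Nt5e and Entpd1) and without (0% of all genes; 0 members).

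Nt5e also rose in unstimulated WT cells with CM. The untreated libraries held 4.36, 8.77, 8.57 and 4.15 CPM and those with CM 18.5, 23.6, 19.2 and 22.7 CPM, a log2 fold change of 1.71 ± 0.35 (edgeR adjusted p = 0.000500; 3.26-fold). The 2 libraries with PGE2, at 16.4 and 12.2 CPM, also lay above all untreated ones, but the log2 fold change of 1.15 ± 0.43 had an adjusted p of 0.153. The treatment effect on Nt5e was not shown to differ between stimulated and unstimulated WT cells. The interaction was 0.71 for PGE2 (95% interval −0.44 to 1.85; edgeR adjusted p = 0.682) and 0.82 for CM (95% interval −0.21 to 1.85; adjusted p = 0.432). Stimulation alone gave −0.43, −0.48 and −0.19 in WT, EP2KO and EP2/EP4KO, with adjusted p of 0.441, 0.392 and 0.787.

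In EP2KO cells Nt5e rose with CM under stimulation, from 5.73, 3.59, 6.93 and 5.44 CPM to 21.3, 12.6, 25.7 and 20.1 CPM, without overlap (1.87 ± 0.34; edgeR adjusted p = 6.04e-05). With PGE2 it stood at 7.95, 8.39, 15.4 and 10.7 CPM, above all untreated libraries, with a log2 fold change of 0.96 ± 0.38 that was not called (adjusted p = 0.129). Without stimulation the values were 0.90 ± 0.35 with PGE2 (adjusted p = 0.201) and 1.09 ± 0.35 with CM (adjusted p = 0.0584). The last was called when only the groups compared entered the fit (adjusted p = 0.0339), and without untreated replicate 4 (1.39, adjusted p = 0.0231) or CM replicate 4 (1.23, adjusted p = 0.0451).

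In EP2/EP4KO cells with CM and stimulation, 1 library held 23.9 CPM of Nt5e while the others held 3.96 and 11.3, against 3.65, 8.13 and 8.50 untreated. The log2 fold change was 0.93 (95% interval 0.14 to 1.72; edgeR adjusted p = 0.660). With PGE2 and stimulation it was 0.30 (95% interval −0.55 to 1.14; adjusted p = 1), and without stimulation 0.32 with PGE2 and 0.78 with CM (adjusted p = 1 and 0.995). The difference of the stimulated effect from WT was −1.56 ± 0.57 for PGE2 (adjusted p = 0.114) and −1.59 ± 0.54 for CM (adjusted p = 0.162), and it was not called. Without the EP2/EP4KO CM stimulated replicate 2, which was the library at 23.9 CPM, the CM difference was −2.38 (adjusted p = 0.0136). Over the 18 groups the means ran from 27.6 CPM in stimulated WT cells with CM to 4.67 CPM in stimulated untreated WT cells. The top group was the only one of 17 to exceed its next neighbour, unstimulated WT cells with CM at 20.98 CPM, by more than the larger SD.

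Entpd1 (CD39; chromosome 19, 40612366 to 40741602, plus strand) fell on stimulation in WT and EP2KO. EP2KO libraries held 27.8, 29.0, 35.3 and 38.2 CPM before and 19.3, 16.5, 16.5 and 17.1 CPM after stimulation, without overlap (−0.90 ± 0.21; edgeR adjusted p = 0.000508). WT libraries held 31.2, 43.9, 20.01 and 30.7 CPM before and 17.5, 23.7, 22.9 and 24.1 CPM after, with overlap (−0.52 ± 0.20; adjusted p = 0.0342). In WT the call was lost with no filter on low counts (adjusted p = 0.139), with only the groups compared (adjusted p = 0.0972), with DESeq2 (adjusted p = 0.0503), and without any 1 of unstimulated replicate 1 (adjusted p = 0.0510), unstimulated replicate 2 (−0.33, adjusted p = 0.220) or stimulated replicate 1 (adjusted p = 0.108). EP2/EP4KO cells gave −0.38 ± 0.22 (adjusted p = 0.198). Neither treatment was called for Entpd1 in any genotype or state. The 12 log2 fold changes lay between −0.34 and 0.41. Within Entpd1, on its strand, lie 3 annotated pseudogenes or intronic genes, of which Gm16027 is in the count table with 1 count.

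Adora2a (A2a; chromosome 10, 75316877 to 75334784, plus strand) rose on stimulation in all 3 genotypes. Untreated WT libraries held 25.4, 23.1, 21.9 and 24.1 CPM before and 40.4, 36.0, 44.8 and 60.0 CPM after, without overlap (0.93 ± 0.19; edgeR adjusted p = 8.16e-05). The rise was 1.05 ± 0.20 in EP2KO (adjusted p = 2.07e-05) and 0.98 ± 0.22 in EP2/EP4KO (adjusted p = 0.000422). In stimulated WT cells with PGE2 the libraries held 30.0, 30.7, 34.1 and 34.3 CPM, all below the lowest untreated one, yet the log2 fold change of −0.49 ± 0.19 was not called (adjusted p = 0.0693), and without untreated replicate 2 it was −0.58 with an adjusted p of 0.0342. With CM it was −0.40 ± 0.19 (adjusted p = 0.140), and no treatment was called for Adora2a elsewhere.

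The members' patterns over the 18 group means are described by Pearson correlations of mean log2 CPM, which share libraries, depth and the large effect of stimulation. Cd274 and Adora2a were the closest pair (r = 0.98, 18 groups), and Havcr2 correlated with both (r = 0.86 and 0.87). Entpd1 ran opposite to Cd274 (r = −0.80) and to Adora2a (r = −0.79), and Nt5e had r from −0.60 with Lag3 to 0.14 with Entpd1. Among 7015 other genes with enough counts, those most like Havcr2 were Cdk17 (r = 0.98), Pdgfa (0.98) and Usp16 (0.98). Those most like Cd274 were Serpinb6b (0.96), Cep83 (0.96) and Serpinb9 (0.96), and 2 of these, Serpinb6b (0.96) and Cep83 (0.96), were also among the 3 most like Adora2a, with Orai1 (0.96). For Nt5e the 3 were Bcl6 (0.93), Vgll4 (0.93) and Akap13 (0.93), for Entpd1 Lbh (0.90), Rfc5 (0.89) and Myo1f (0.89), and for Lag3 Rbmxl1 (0.90), Dus1l (0.90) and Chsy1 (0.90).

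A list of 26 other checkpoint receptors and ligands, of which 18 were tested, moved in both directions in WT. Over all genes tested, stimulation of WT cells called 42%. PGE2 called 15.6% and CM 15.4% in stimulated WT cells, and 2.97% and 8.23% without stimulation. Stimulation raised 6 and lowered 5 (median log2 fold change −0.27, against 0.01 over all genes tested). Among them were Lilrb4a (3.08 ± 0.49), Pdcd1lg2, the second PD-1 ligand (1.56 ± 0.29), and Vsir (VISTA; 1.26 ± 0.17). Fgl2, a ligand of the inhibitory Fc receptor, fell (−1.35 ± 0.16; all edgeR adjusted p at most 9.27e-06). In stimulated cells PGE2 raised 3 and lowered 4 of the 18, with a median of −0.02 against −0.05 over all genes. Fgl2 rose by 1.56 ± 0.16 (adjusted p = 2.28e-11) and Tigit, an inhibitory receptor for nectins, by 1.66 ± 0.41 (adjusted p = 0.00212), while Pdcd1lg2 fell by 1.23 on the log2 scale (SE 0.28; adjusted p = 0.000891) and Cd160 by 1.04 (SE 0.23; adjusted p = 0.000683). CM raised 3 and lowered 3, including the same 4 genes in the same directions. Without stimulation 2 rose and 2 fell with PGE2, and 2 rose and 3 fell with CM, with Tigit and Fgl2 higher and Cd160 and Cd96 lower with both. In EP2/EP4KO, 0 of 18 were called by edgeR or DESeq2 with either treatment in either state, and 0 had an unadjusted p under 0.05 in each. Of all genes, edgeR called at most 0.0746% there.

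Of 33 other adenosine pathway genes, 21 were tested, and 0 were called by edgeR or DESeq2 with PGE2 in WT cells in either state (1 without and 3 with stimulation at an unadjusted p under 0.05). Of all genes, PGE2 called 2.97% without and 15.6% with stimulation, and CM 8.23% and 15.4%. CM raised the nucleotidase gene Entpd7 (1.18 ± 0.34; edgeR adjusted p = 0.0211) and lowered Slc29a1, which encodes the nucleoside transporter ENT1 (−1.22 ± 0.33; adjusted p = 0.0128), in unstimulated cells, and lowered Ampd2, an AMP deaminase gene (−0.68 ± 0.22; adjusted p = 0.0269), in stimulated cells. DESeq2 called 2 genes of this list with CM in unstimulated cells and 0 in stimulated ones, so the Ampd2 call was lost there. Stimulation itself raised 2 of the 21, Ampd2 (1.05 ± 0.23) and Slc29a3 (0.97 ± 0.24), and lowered 2, Entpd5 (−1.22 ± 0.32) and Nt5c3 (−0.49 ± 0.19). It called 42% of all genes.

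Of 22 transcription factor genes known to act on checkpoint genes, 21 were tested. Stimulation of WT cells raised 7 and lowered 2 of the 21, beside 42% of all genes called. The rises were led by Nr4a3 (2.99 ± 0.16), Nr4a2 (2.79 ± 0.16) and Irf4 (2.78 ± 0.24), with Tcf7 at −1.27 ± 0.15 (edgeR adjusted p at most 2.35e-10). In stimulated cells PGE2 raised 5 and lowered 5 (15.6% of all genes called). Stat3 (2.07 ± 0.13), the cyclic AMP responsive gene Crem (1.91 ± 0.19) and Hif1a (1.13 ± 0.14) rose, and Irf4 (−1.11 ± 0.21), Tbx21 (−1.10 ± 0.21) and Nr4a3 (−0.68 ± 0.14) fell (adjusted p at most 0.000211). In EP2/EP4KO, 0 of 21 were called by edgeR or DESeq2 with either treatment in either state, where edgeR called at most 0.0746% of all genes. At an unadjusted p under 0.05 there were 2 (PGE2) and 1 (CM) without stimulation, and 1 (PGE2) and 6 (CM) with it.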

How the data were processed

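Per the labels' protocols, the bulk 3' mRNA libraries were barcoded by sample and held molecular identifiers (UMIs). The authors deposited raw counts per gene symbol. Not given in the sources used here: the aligner, the counter, and whether UMIs or reads were counted. GRCm38 (mm10) and DESeq2 are named in the submitters' processing notes, without versions. The members and gene lists were chosen with earlier results of these data known.

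Genes were filtered with filterByExpr (minimum count 10), which kept 10723 of 36273 genes and 99.2% of counts, and scaled by TMM. edgeR 4.0.16 (limma 3.58.1, R 4.3.3) fitted 18 group means over 64 libraries by quasi-likelihood, without a replicate block, and p-values were adjusted by Benjamini-Hochberg over all genes tested. Intervals are 95%. CPM divides a count by the scaled library size. Totals of 753973 to 1693750 counts limit precision for sparse genes. Counts of Pdcd1 and Ctla4 were compared by exact permutation, chosen after their values were seen. No replicate pair of 85 was identical.

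Genes named from the 3 lists were picked from the called genes with the smallest p (up to 3 per direction), and not all of these are named. The 3 genes most correlated with each member are named too. So are single marker genes, genes that check genotype or sex, and genes that overlap a member. Alternatives were RLE factors, library totals alone, no count filter, a replicate block, only the compared groups, DESeq2 1.42.0 and leaving out each library. The test scripts were tested on simulated data.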

Additional observations from a re-analysis of the deposited data

Results flagged for a closer look

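In 7 of 85 groups of 4 libraries and 1 member, 1 library lay apart from the other 3 (a gap to the nearest library beyond Dixon's 95% limit). Chance alone gives about 1 in 20. Havcr2 stood at 58.5 CPM in replicate 2 of stimulated WT cells with CM, where the others held 43.7 to 45.3, and at 36.1 CPM in replicate 3 of unstimulated EP2KO cells with CM, where the others held 20.98 to 23.4. Lag3 stood at 3.84 CPM in replicate 3 of unstimulated EP2KO cells with PGE2 (others 7.64 to 8.33) and at 22.3 CPM in replicate 4 of stimulated EP2KO cells with PGE2 (others 8.39 to 10.5). Entpd1 stood at 24.8 CPM in replicate 4 of unstimulated EP2KO cells with CM (others 35.8 to 37.0). Adora2a stood at 36.5 CPM in replicate 1 of stimulated WT cells with CM, where the others held 33.3 to 33.4. Pdcd1 had 0.727 CPM, which is 1 count, in replicate 1 of untreated unstimulated WT cells, and 0 in the others.

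For Havcr2, 5 differences between effects passed the threshold in edgeR. The effect of PGE2 differed between stimulated and unstimulated WT cells by −1.71 and that of CM by −1.36. In stimulated cells the effect of PGE2 differed by 1.06 between EP2/EP4KO and EP2KO and by 1.54 between EP2/EP4KO and WT, and the effect of CM by 1.05 between EP2/EP4KO and WT.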

How the results depend on the processing

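Of 25 called values of single members, 21 stayed called under every alternative, and none of the 25 changed sign. Called values were lost in 33 of their alternatives, and 20 alternatives of the 185 uncalled values passed the threshold. Library totals in place of TMM moved the median of all genes by up to 0.166 (log2). With library totals or with only the groups compared, the member called for the PGE2 effect in stimulated EP2/EP4KO minus EP2KO cells, and for the CM effect in stimulated EP2/EP4KO minus WT cells, was lost (0 called). With only the groups compared, CM without stimulation called 2 members in WT and 1 in EP2KO.

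Replicate numbers are shared between groups, and most same-numbered libraries of a genotype, though not all, deviated together. The correlation of deviations exceeded 0.1 in 38 of 50 pairs in WT, 47 of 60 in EP2KO and 38 of 45 in EP2/EP4KO. For different numbers it did so in 23 of 150, 20 of 180 and 4 of 90 pairs. The medians were 0.217, 0.251 and 0.264, against −0.0740, −0.0861 and −0.125 for different numbers. No label says what a number marks, and the main fit takes no account of it. With the replicate block, the count of members called was 1 for PGE2 and 1 for CM in unstimulated EP2KO cells, 2 for CM in unstimulated WT cells, 4 for PGE2 in stimulated WT cells, 3 for CM in stimulated EP2KO cells, 2 for the PGE2 and 2 for the CM effect by stimulation in WT, and 2 for the PGE2 and 2 for the CM effect in stimulated EP2/EP4KO minus WT cells. The members added by the block were Cd274 (PGE2 in unstimulated EP2KO cells, edgeR adjusted p = 0.0184; CM in unstimulated WT cells, 0.0333; CM in stimulated EP2KO cells, 0.0254; PGE2 and CM by stimulation in WT, 0.0142 and 0.0102), Nt5e (CM in unstimulated EP2KO cells, 0.0107; PGE2 and CM in EP2/EP4KO minus WT, 0.0428 and 0.0455) and Adora2a (PGE2 in stimulated WT cells, 0.0363). The block changed no other call of a member.

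When each library was left out in turn, the count of members called ranged from 3 to 4 for stimulation of untreated WT cells, from 2 to 3 for PGE2 in stimulated WT cells, from 0 to 1 for PGE2 and for CM in unstimulated EP2KO cells, from 1 to 2 for PGE2 in stimulated EP2KO cells, and from 0 to 1 for the PGE2 effect in stimulated EP2/EP4KO minus EP2KO cells and for the CM effect in EP2/EP4KO minus EP2KO and minus WT. Depth limits Pdcd1, Ctla4, Lag3 and Nt5e, which had few counts per library.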
